A study of Equus caballus with 25 samples.

Results

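PTGFR and PTGER2 encode cell surface receptors for prostaglandins, and their messenger RNA was followed through the estrous cycle in the endometrium, the lining of the uterus, of the mare. They are 2 of the 620 genes that could be named on the array, and they were followed with every probe whose RefSeq transcript belonged to either of them. This gave 7 of 43603 probes, of which 1 measured PTGFR (A_69_P001431, transcript NM_001081806) and 6 measured PTGER2 (transcript NM_001127352). The study took transcervical biopsies from 5 normally cycling Bavarian Warmblood mares, and each mare contributed 1 biopsy at each of 5 stages, which gave 25 arrays. Day 0 was the day of ovulation, day 3 lay in the early luteal phase, day 8 in the mid luteal phase, day 12 in the late luteal phase, and day 16 at the return towards ovulation. The biopsies of a mare came from different cycles, the labels name no treatment, and the ages are not given in the sources used here. A biopsy holds epithelium, stroma, vessels and immune cells together, so fewer cells of a type and less RNA per cell cannot be told apart.

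PTGFR is the receptor for prostaglandin F, which couples mainly to Gq and raises calcium in the cell. PTGER2 is the EP2 receptor for prostaglandin E, which couples to Gs and raises cyclic AMP. In the mare, prostaglandin F released by the endometrium late in the luteal phase ends the life of the corpus luteum, while prostaglandin E acts on vessels, immune cells and smooth muscle of the uterus and oviduct.

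The 75th percentile of the scanner signal, against which each array was scaled, lay between 698 and 3701 units, with a median by day that ran from 895 on day 0 to 2001 on day 16, and 70.3% to 88.1% of spots were well above background. All 7 receptor probes were well above background on all 25 arrays and none was saturated. Levels below are log2 signal minus the log2 75th percentile of the same array, so a level of 0 is the array's 75th percentile and a difference of 1 is a doubling. The day 0 array of mare 2 and the day 3 array of mare 4 stood apart from the others in earlier results of these data, and values without them are given where they matter. Probes were tested with limma across 35770 probes, and a change was called at an adjusted p under 0.05 after Benjamini-Hochberg adjustment.

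By its day means PTGFR was highest at day 3, in the early luteal phase, and lowest at day 16. From the highest to the lowest day, the mean level was −3.55 ± 0.49 on day 3 (SD, n = 5), −3.87 ± 0.46 on day 8, −4.32 ± 0.54 on day 0, −4.50 ± 0.75 on day 12 and −5.54 ± 1.01 on day 16. In that order the called differences were those of day 16 from day 3 and from day 8, and neighbouring days did not differ beyond the test's threshold.

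At day 0 the PTGFR levels of mares 1 to 5 were −4.39, −5.11, −3.77, −3.84 and −4.48. At day 3 they were −3.92, −2.90, −3.15, −3.81 and −3.95. Every mare stood higher at day 3 than at day 0, but the ranges of the days overlapped. At day 8 the levels were −3.33, −3.56, −4.19, −4.45 and −3.80, and at day 12 they were −4.02, −4.35, −4.15, −5.82 and −4.17. Mare 4 was the lowest at day 12, and without that array the day 12 mean was −4.17 ± 0.14 (SD, n = 4). At day 16 the levels were −4.18, −5.67, −5.17, −6.98 and −5.67. All day 16 levels lay below all day 3 levels, whereas mare 1 at day 16 stood above mares 3 and 4 at day 8. The scanner signal behind these values was low, from 20.2 to 74.3 units at day 0, 111 to 214 at day 3 and 29.3 to 54.7 at day 16. The lowest signal that counted as well above background was between 4.96 and 17.0 units over the arrays.

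PTGER2 was lowest at ovulation, rose to similar levels at days 8 and 12, and was lower again at day 16 in 4 of 5 mares. The values are those of its brightest probe (A_69_P000892). From the highest to the lowest day, its mean level was 2.51 ± 0.28 on day 8 (SD, n = 5), 2.33 ± 0.26 on day 12, 1.32 ± 0.60 on day 3, 1.11 ± 1.21 on day 16 and 0.48 ± 0.34 on day 0. In this order the only neighbours that differed by more than their SDs were days 12 and 3, and that difference was not called. The plot of receptor levels by day shows the different timing of both genes.

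At day 0 the PTGER2 levels of mares 1 to 5 were −0.05, 0.76, 0.60, 0.76 and 0.35. At day 3 they were 1.76, 0.88, 0.91, 0.87 and 2.15. On this probe the lowest day 3 level was above the highest day 0 level, although by a small gap. On each of the other PTGER2 probes the levels of these days overlapped. At day 8 the levels were 2.28, 2.15, 2.80, 2.70 and 2.63, and at day 12 they were 2.27, 2.21, 2.16, 2.79 and 2.23. Both luteal days lay wholly above day 0, and mares differed least among themselves on these days. At day 16 the levels were 0.05, 0.37, 0.75, 3.11 and 1.26. Mare 4 at day 16 held the highest PTGER2 level of the 25 arrays, while its PTGFR level of −6.98 was the lowest of the 25. Without that array the PTGER2 mean at day 16 was 0.61 ± 0.52 (SD, n = 4), and the PTGFR mean was −5.17 ± 0.70. The day 16 array of mare 4 also had the highest 75th percentile of the 25, at 3701 units. Its PTGFR signal of 29.3 units was above the 20.2 units of mare 2 at day 0. Its PTGER2 signal of 31959 units was the highest of the 25. The part of the scaling in the levels of this array was not tested.

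**Figure D1:**
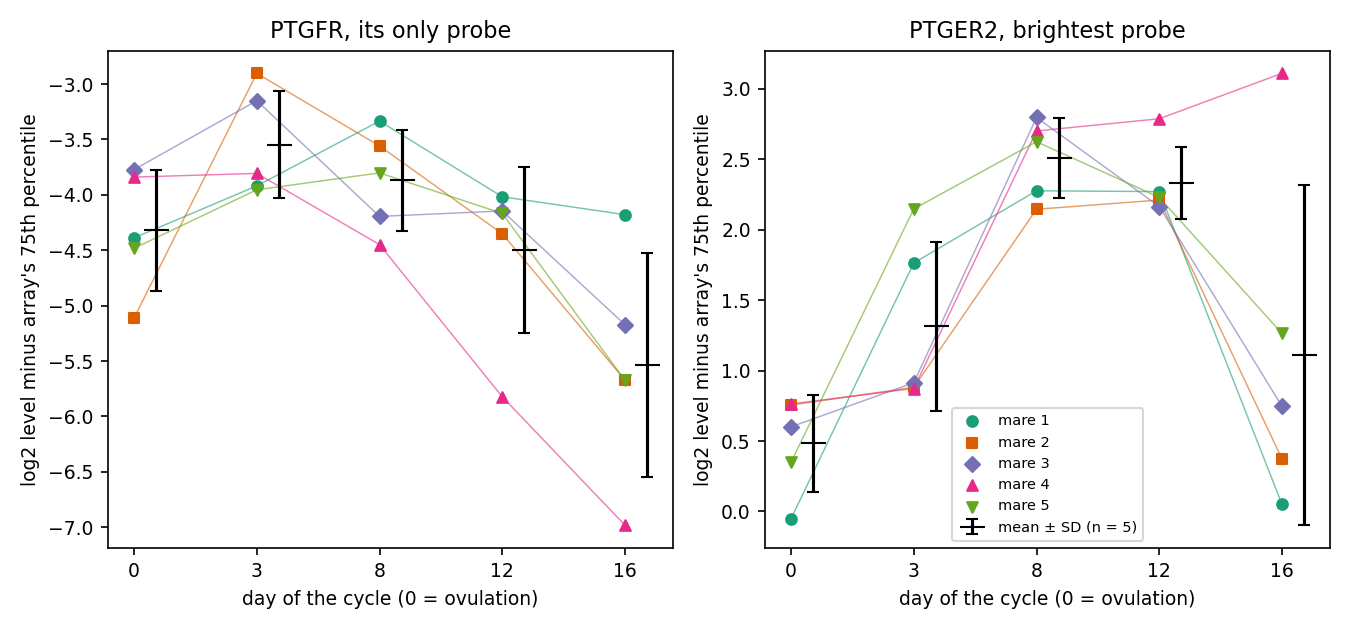
Levels of PTGFR (left) and of the brightest PTGER2 probe (right) as log2 signal minus each array's 75th percentile, against the cycle day; points are mares, and the bars give the day mean and SD of 5 mares. PTGFR was highest at day 3 (−3.55) and lowest at day 16 (−5.54), while PTGER2 was highest at day 8 (2.51) and mare 4 alone stayed high at day 16 (3.11).

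Over the 5 days PTGFR changed with an adjusted p of 0.00526 in limma's moderated F test, and PTGER2 with an adjusted p of 0.00103. This test called 35.8% of the 35770 probes. A smaller p than that of PTGFR was found for 17.5% of all probes, and a smaller one than that of the PTGER2 probe for 10.3%. Without mare 2 the PTGFR test gave an adjusted p of 0.0574, and so no call.

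Between ovulation and the early luteal phase no receptor change was called. PTGER2 was 0.83 ± 0.39 (SE) higher at day 3 than at day 0 (adjusted p = 0.165) and PTGFR 0.77 ± 0.41 higher (adjusted p = 0.225), with 5 of 5 mares higher for each gene. For PTGER2 that count is of its brightest probe. The other PTGER2 probes had from 3 of 4 to 5 of 5 mares higher. Of all probes, 12.7% were called in this comparison. Without the day 16 array of mare 4 the PTGER2 difference was called, with the same mean difference and an adjusted p of 0.0362, and without mare 4 altogether it was 1.01 (adjusted p = 0.0237). With the array's signal level as a covariate it was 0.34 and that of PTGFR was 1.41, neither of them called. The PTGFR difference was 0.18 with normexp background correction at an offset of 50 (adjusted p = 0.640). Over 14 alternative analyses it ran from −0.058, with mare and slide as blocks, to 1.41, and it was called in none of them.

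Between days 3 and 8 of the luteal phase PTGER2 rose and PTGFR did not pass the test. PTGER2 was 1.19 ± 0.39 (SE) higher at day 8 than at day 3, a 2.29-fold difference (adjusted p = 0.0437), and it was higher in 5 of 5 mares. The background here was 13.8% of probes called. Of the 6 PTGER2 probes 5 passed, with differences from 1.19 to 1.29, and the other had 1.07 (adjusted p = 0.0724). This call was a narrow one. It was lost without the day 0 array of mare 2 and the day 3 array of mare 4 (1.08, adjusted p = 0.114) and in 17 of 30 analyses that left out 1 array or 1 mare, with an adjusted p of up to 0.212. PTGFR differed by −0.32 ± 0.41 (adjusted p = 0.681).

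Against ovulation PTGER2 was higher on both later luteal days, and its day 8 level gave the largest difference of the 20 tested for the receptors. At day 8 PTGER2 was 2.03 ± 0.39 (SE) above day 0, or 4.07-fold (95% interval of the log2 difference 1.22 to 2.83; adjusted p = 0.000652), where 21.9% of all probes were called. At day 12 it was 1.85 ± 0.39 above day 0, or 3.60-fold (95% interval 1.04 to 2.66; adjusted p = 0.00174), where 17.9% were called. In both comparisons 5 of 5 mares were higher, the days did not overlap and 6 of 6 probes passed. How many of all probes had no overlap between these days was not counted. PTGFR differed from day 0 by 0.45 ± 0.41 at day 8 (adjusted p = 0.494) and by −0.18 ± 0.41 at day 12 (adjusted p = 0.815).

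Within the luteal phase, from day 8 on and from day 3 to day 12, no receptor difference was called. From day 8 to day 12 PTGER2 differed by −0.18 ± 0.39 (adjusted p = 0.849) and PTGFR by −0.63 ± 0.41 (adjusted p = 0.477), in a comparison that called 1.1% of probes. From day 3 to day 12 PTGER2 was 1.02 ± 0.39 higher in 5 of 5 mares (adjusted p = 0.0754) and PTGFR 0.95 lower in 5 of 5 mares (log2 difference −0.95 ± 0.41, adjusted p = 0.115). Days 3 and 12 did not overlap for PTGFR or for the brightest PTGER2 probe. They did overlap on PTGER2 probes A_69_P000893 and A_69_P101276, the latter with 4 of 5 mares higher. The share of all probes without overlap was not counted, and 17.9% of probes were called. The PTGER2 difference passed without the day 16 array of mare 4 (adjusted p = 0.00795), without the day 3 array of mare 5 (1.22, adjusted p = 0.0444) and in a model of the 10 arrays of these days (adjusted p = 0.0313). That of PTGFR passed under quantile normalization (−1.15, adjusted p = 0.0166).

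Towards the next ovulation both receptors were lower. PTGFR fell by 1.67 from day 8 to day 16 (SE 0.41, 95% interval −2.52 to −0.81, adjusted p = 0.00745), so that it was 3.18-fold lower, in 5 of 5 mares. PTGER2 fell by 1.40 over the same days (SE 0.39, 95% interval −2.21 to −0.59, adjusted p = 0.0168), or 2.64-fold, in 4 of 5 mares and in 6 of 6 probes. This comparison called 15% of all probes. Without mare 2 the PTGFR difference was −1.56 and missed the threshold (adjusted p = 0.0531). For PTGER2, 5 of 30 such analyses lost the call, those without mare 1, 2, 3 or 5 (adjusted p = 0.0687, 0.0898, 0.133 and 0.0565) and that without the day 16 array of mare 2 (adjusted p = 0.0506), while without the day 16 array of mare 4 the difference was −1.90 (adjusted p = 8.17e-05). From day 3 to day 16 PTGFR fell by 1.99 (SE 0.41, 95% interval −2.84 to −1.14, adjusted p = 0.00217), or 3.97-fold, in 5 of 5 mares and with no overlap of the days. With normexp at an offset of 50 that difference was −1.30 (adjusted p = 0.00274). PTGER2 differed by −0.21 ± 0.39 between these days (adjusted p = 0.836), where 13.8% of probes were called. The share of all probes without overlap between days 3 and 16 was not counted.

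From day 12 to day 16 the calls were borderline for PTGER2, and from day 16 to day 0 neither receptor was called. From day 12 to day 16 PTGER2 differed by −1.22 ± 0.39 (95% interval −2.03 to −0.41, adjusted p = 0.0553), with 4 of 5 mares lower and mare 4 higher by 0.32. Of its 6 probes 1 passed, with adjusted p from 0.0489 to 0.0686. On the brightest probe the difference passed in 7 of 14 alternative analyses (lowest adjusted p = 0.0260), among them quantile normalization (adjusted p = 0.0275), both normexp corrections and the mare as a block (adjusted p = 0.0369). Leaving out mare 4 at day 16 gave −1.72 (adjusted p = 0.000454). PTGFR differed by −1.03 ± 0.41 over these days, lower in 5 of 5 mares (adjusted p = 0.139). It was called without the day 12 array of mare 4 (−1.37, adjusted p = 0.0391) or the day 16 array of mare 1 (−1.37, adjusted p = 0.0303). This comparison called 8.07% of probes. Day 0 minus day 16 was −0.62 ± 0.39 for PTGER2 (adjusted p = 0.399) and 1.22 ± 0.41 for PTGFR (adjusted p = 0.0928, higher at day 0 in 4 of 5 mares), and 4.71% of probes were called. The PTGFR difference was called under normexp background correction with an offset of 50 (1.12, adjusted p = 0.0135) or 0 (1.27, adjusted p = 0.0362), without mare 1 (1.57, adjusted p = 0.0305) and without the day 16 array of that mare (1.56, adjusted p = 0.0149). It was smaller with the array's signal level as a covariate (0.46, adjusted p = 0.800) and without mare 4 (0.74, adjusted p = 0.257), and PTGER2 then differed by −0.043 and −0.19.

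**Figure D2:**
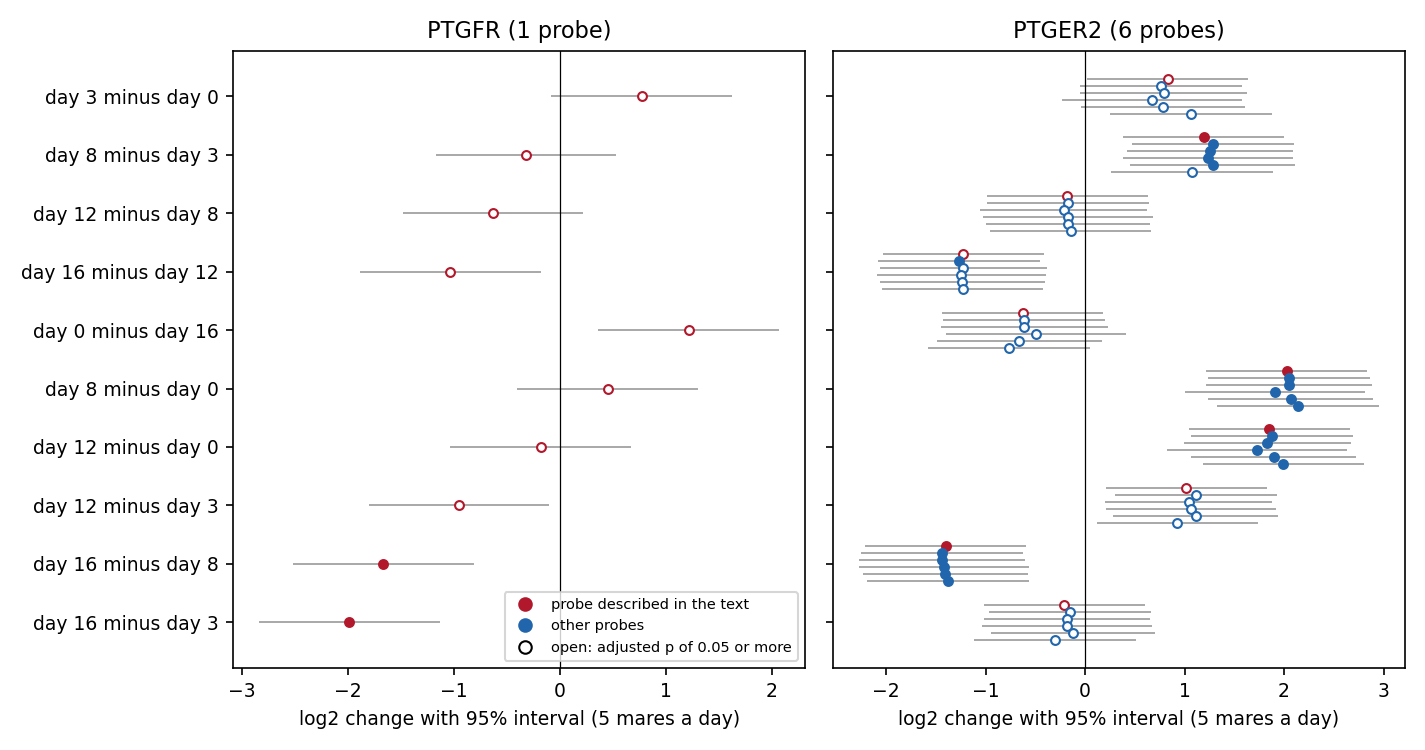
Log2 differences between pairs of days for the PTGFR probe and the 6 PTGER2 probes, with 95% intervals; filled points passed the threshold of 0.05 on the adjusted p. The 6 PTGER2 probes lay close together in each comparison, and all 6 passed for day 8 against day 0 and day 12 against day 0.

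The 6 PTGER2 probes measured 1 transcript and are not replicates of each other. Their levels over the 25 arrays correlated pairwise between 0.956 and 0.998 (Pearson's r, 15 pairs, across arrays that share mares and slides). Their adjusted p in the F test ran from 0.000704 to 0.00465.

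The arrays lay on 7 slides, and each slide held more than 1 cycle day, so differences were also read within a slide. They were scanned on 4 dates, numbered here 1 to 4. All day 0 arrays were scanned on dates 3 and 4, while each other cycle day included arrays of date 1 or 2. The scan date was not tested on its own. On the 4 slides that held days 8 and 16 PTGFR was lower at day 16 on all 4, by −1.87 to −0.84, and PTGER2 was lower on all 4, by −2.33 to −1.36. The day 16 array of mare 4 is not among these slides, and on 1 of the 4 the arrays came from 2 different mares. For days 3 and 16 PTGFR was lower at day 16 on 4 of 4 slides, by −3.18 to −0.26, while PTGER2 was lower on 3 of them and 2.24 higher on the slide of mare 4. PTGER2 was higher at day 8 than at day 0 on 2 of 2 slides, by 2.27 and 2.75, and higher at day 8 than at day 3 on 4 of 4, by 0.48 to 1.79. Day 12 exceeded day 0 on 2 of 2 slides for PTGER2, by 1.55 and 2.02.

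Within single mares, with PTGER2 read on its brightest probe, the receptors reached their highest levels on different days in 3 of 5 mares. Both were highest on day 8 in mares 1 and 5. PTGFR was highest at day 3 in 3 mares and at day 8 in the other two, and lowest at day 16 in 4 mares and at day 0 in 1. On that probe PTGER2 was highest at day 8 in 3 mares, at day 12 in 1 and at day 16 in mare 4, and lowest at day 0 in 4 mares and at day 16 in mare 2. In mare 1 it stood at 2.28 on day 8 and 2.27 on day 12. Probes A_69_P000891, A_69_P000893, A_69_P000894 and A_69_P101276 were highest on day 12 in that mare, so her shared day 8 peak depends on the probe. The plot of both receptors on each array shows no common trend: over the 25 arrays Pearson's r was −0.14 and Spearman's rho −0.03, a description of arrays that share mares and slides.

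The change of PTGER2 minus the change of PTGFR was compared directly by an exact permutation test, two-sided, over the 10 arrays of each pair of days, which allows no p below 0.00794. From day 0 to day 12 PTGER2 changed by 2.03 more than PTGFR (exact p = 0.00794, adjusted over 10 comparisons 0.0397), in 5 of 5 mares. From day 3 to day 12 the difference was 1.97 (exact p = 0.00794, adjusted 0.0397), also in 5 of 5 mares. The other 8 comparisons did not pass after adjustment, among them day 0 to day 8 (1.57, exact p = 0.0238, adjusted 0.0794) and day 3 to day 8 (1.51, exact p = 0.0397, adjusted 0.0992). With mares paired, 5 sign flips cannot go below an exact p of 0.0625, the value both passing comparisons then had. Each lost its call in 10 of 30 analyses that left out 1 array or 1 mare. These were the analyses without a whole mare or without a day 12 array. Leaving out arrays of the compared days also leaves fewer arrangements. From day 0 to day 3 the difference was 0.060 (adjusted exact p = 0.929). The day 0 to day 8 difference passed in 3 of 4 alternative analyses, but not under sign flips paired by mare. It was 1.58 under quantile normalization and 2.04 and 1.76 under normexp with an offset of 50 and 0 (each adjusted exact p = 0.0265). With 1 array or 1 mare left out, it passed in 1 of 30 analyses.

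**Figure D3:**
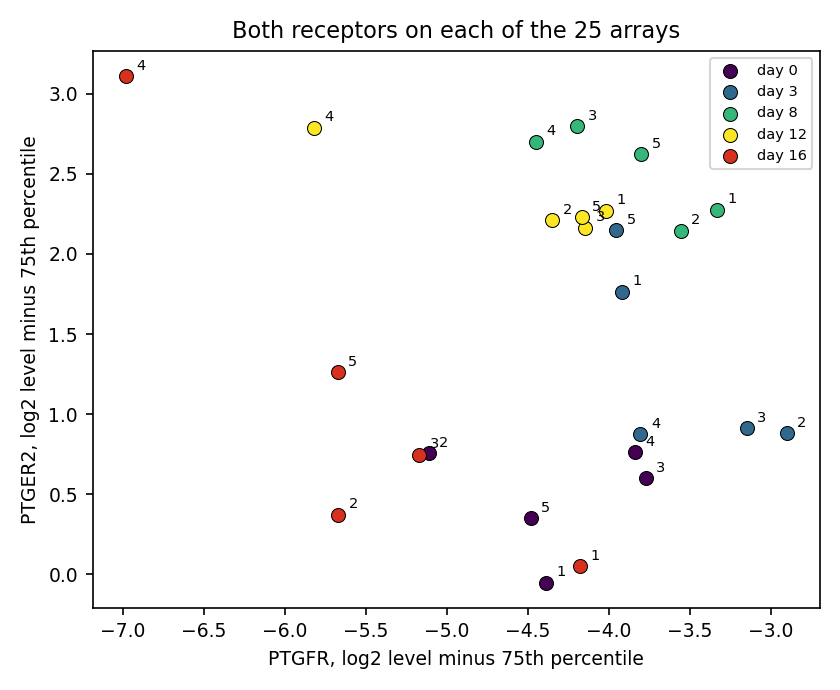
Level of the brightest PTGER2 probe against the level of PTGFR on each of the 25 arrays (both log2 signal minus the array's 75th percentile), coloured by cycle day. Days 8 and 12 lie high for PTGER2, and the day 16 array of mare 4 stands at the lowest PTGFR level (−6.98) and the highest PTGER2 level (3.11).

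The genes around these receptors were read from a list of 71 genes of prostaglandin release, synthesis, breakdown, receptors, luteolysis and signalling, of which 9 could be named and tested. The 9 comprised 2 of 4 genes of precursor release, 4 of 13 of synthesis, 1 of 5 of transport and breakdown, 1 of 6 luteolysis receptors and hormones, and 1 of 35 of signalling below the receptors. The other 7 prostaglandin receptors and the receptor partner had no named probe and were not analysed here. Of the 9 genes 6 passed the F test, where 35.8% of all probes did.

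The phospholipases that free the fatty acid precursor had their lowest mean levels on days 8 and 12, the days of the highest PTGER2 means. PLA2G4A, the cytosolic phospholipase A, had a mean of 0.11 ± 0.35 on day 0 (SD, n = 5), −0.44 ± 0.22 on day 3, −2.04 ± 0.27 on day 8, −1.42 ± 0.58 on day 12 and 0.54 ± 0.58 on day 16 (F test adjusted p = 7.09e-07). Between days 8 and 16 it rose by 2.58 ± 0.27 (SE, adjusted p = 1.32e-06). PLA2G2A, a secreted phospholipase A, had a mean of 4.78 ± 0.35 on day 0, 5.25 ± 0.49 on day 3, 3.56 ± 0.93 on day 8, 1.89 ± 1.30 on day 12 and 5.10 ± 0.47 on day 16. Its day 12 level was −3.36 against day 3 (adjusted p = 3.28e-05), and its day 16 level was 3.21 above day 12 (adjusted p = 0.000141).

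PTGES, which makes prostaglandin E from the cyclooxygenase product, had its lowest mean on day 0, as PTGER2 did, and rose into the luteal phase. Its mean was 0.32 ± 0.56 on day 0 (SD, n = 5), 1.70 ± 0.22 on day 3, 1.79 ± 0.21 on day 8, 2.36 ± 0.13 on day 12 and 1.54 ± 1.13 on day 16. It was 1.38 ± 0.36 (SE) higher at day 3 than at day 0 (adjusted p = 0.0139) and 2.03 higher at day 12 (adjusted p = 0.000284), and 5 of 5 of its probes passed the F test. PTGS2, the inducible cyclooxygenase, did not pass on its brightest probe (F test adjusted p = 0.243), although 2 of its 3 probes did. PTGES3, another prostaglandin E synthase, did not pass either (adjusted p = 0.125). PTGDS, a prostaglandin D synthase, missed the F test on its brightest probe (adjusted p = 0.0628), although 1 of its 2 probes passed. On the brightest probe its level at day 16 was −0.69 ± 0.23 against day 8 (adjusted p = 0.0436) and −0.78 against day 3 (adjusted p = 0.0252).

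HPGD, the enzyme that begins prostaglandin breakdown, was highest at ovulation. Its mean was −3.02 ± 0.34 on day 0 (SD, n = 5), −4.36 ± 0.78 on day 3, −3.77 ± 0.34 on day 8, −4.39 ± 0.73 on day 12 and −4.14 ± 0.40 on day 16. Between days 0 and 3 it fell by 1.34 (adjusted p = 0.0125), and it was −1.37 different at day 12 from day 0 (adjusted p = 0.00621). ESR1, the estrogen receptor, was 7.12 ± 0.24 at day 0, 5.39 ± 0.27 at day 12 and 6.47 ± 0.63 at day 16 (F test adjusted p = 0.000171), with its lowest mean at day 12. Of the 6 ESR1 probes 4 passed the F test. RGS2, which limits signalling through Gq, was highest at day 12 and 1.54 ± 0.33 (SE) above day 0 (adjusted p = 0.00201).

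Counted over the 9 genes, the calls higher and lower were 1 and 1 for day 3 against day 0 (12.7% of all probes called), 0 and 2 for day 8 against day 3 (13.8%), 0 and 0 for day 12 against day 8 (1.1%), and 3 and 0 for day 16 against day 12 (8.07%). They were 1 and 2 for day 8 against day 0 (21.9%), 2 and 4 for day 12 against day 0 (17.9%) and 1 and 3 for day 12 against day 3 (17.9%). For day 16 they were 2 and 1 against day 8 (15%) and 1 and 1 against day 3 (13.8%). For day 0 against day 16, 0 were higher and 1 lower (4.71%).

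**Figure D4:**
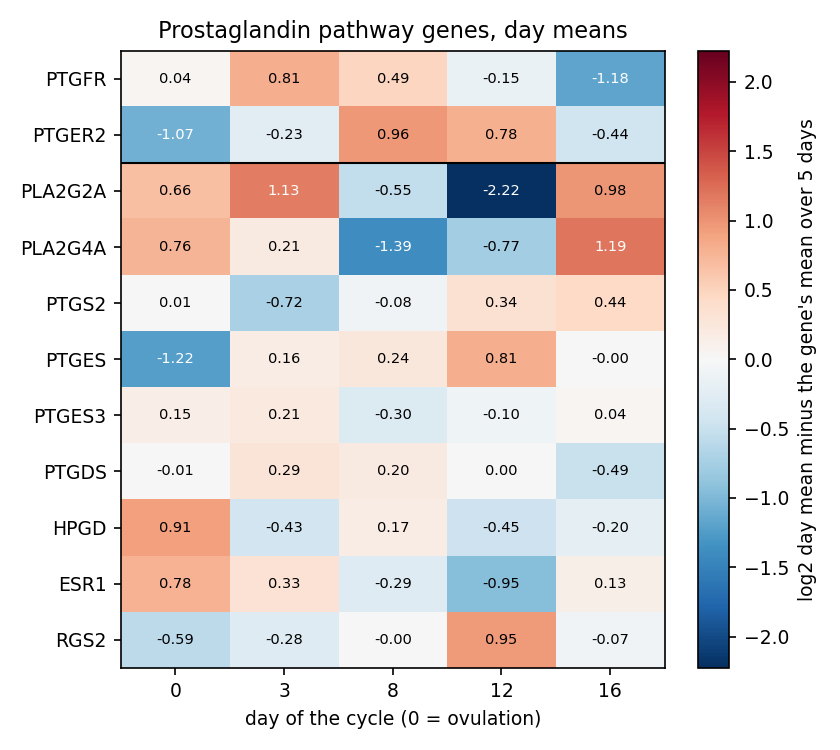
Mean level of the receptors and of the 9 prostaglandin pathway genes with a named probe on each cycle day (5 mares a day), printed and coloured as the log2 difference from the gene's own mean over the 5 days. PTGER2 stood highest at day 8, PTGES and RGS2 at day 12, and PTGFR, PLA2G2A, PTGES3 and PTGDS at day 3. PLA2G2A, PLA2G4A, ESR1, HPGD and PTGES3 stood lowest at day 8 or day 12.

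Of 512 named genes the 5 whose levels were most like PTGFR over the 25 arrays (Pearson's r, a description) were SLC16A1 (0.72), a monocarboxylate transporter, RNF208 (0.71), DDX6 (0.69), an RNA helicase, MTMR4 (0.69) and TNF (0.67), the inflammatory cytokine. SLC16A1 had mean levels of 3.78 at day 3 and 2.25 at day 16. DDX6 and TNF did not pass the F test over the days (adjusted p = 0.608 and 0.260). The 5 genes most like PTGER2 were CYP3A89 (0.88), P19 (0.82), LGB1 (0.81), CYP3A97 (0.78) and CTTNBP2 (0.77). CYP3A89 and CYP3A97 are cytochrome P450 genes, P19 encodes the uterine lipocalin uterocalin, and LGB1 a beta-lactoglobulin. CYP3A89 stood at −2.98 on the day 16 array of mare 4 and between −6.62 and −4.35 on the other 4 day 16 arrays, whereas its day 8 mean was −0.24. CTTNBP2 on that array stood at 0.57, within the range of 0.56 to 1.65 of the other 4 day 16 arrays, so it did not share the high level of PTGER2 there.

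Markers of the cell types in a biopsy were measured for 7 of 30 listed genes. DCN and LUM, of stromal fibroblasts, were 4.93 and 2.49 at day 0 and 3.50 and 1.19 at day 8 (F test adjusted p = 0.000909 and 0.000472). TAGLN, of smooth muscle, was 1.77 ± 0.32 (SE) higher at day 16 than at day 8 (adjusted p = 0.000504), on days between which both receptors fell. DCN was also higher at day 16 than at day 8 (1.04 ± 0.26, adjusted p = 0.00840), and LUM differed by 0.82 ± 0.35 (adjusted p = 0.122). PECAM1, of endothelium, passed the F test on its brightest probe (adjusted p = 0.0308), and only 1 of its 3 probes passed. ESRP1, of epithelium (adjusted p = 0.621), DYDC1, of ciliated cells (adjusted p = 0.146), and CD68, of macrophages (adjusted p = 0.0790), did not pass. The part of these markers in the receptor results was not tested.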

How the data were processed

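The deposited values are intensities of 25 one-colour Agilent arrays of endometrial RNA, 5 mares at each of 5 days. Per the labels' protocols, RNA was isolated with Trizol and labelled with Cy3. Per the file headers, the authors used Agilent Feature Extraction 10.7.3.1, which subtracted the background array by array, and no step between arrays is named. From the processed signal, log2 values minus each array's 75th percentile were computed. Outlier spots as marked by the scanner software were left out, and a probe's spots were averaged. Tested were 35770 of 43603 probes, those well above background on 4 or more arrays of at least 1 day.

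The model was fitted with limma 3.58.1 in R 4.3.3, with the day as the term and all 25 arrays in the model, a moderated F test over the days and 10 comparisons of 2 days, with Benjamini-Hochberg adjustment over all tested probes. The difference between the receptors' changes was tested by exact permutation. Only the limma fit was tried on simulated arrays, which had independent noise and no shared mares or slides.

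Symbols came from RefSeq genes of the assembly TB-T2T by accession, for 1307 probes of 620 genes, of which 538 genes had a tested probe. The build of the array is not given in the sources used here, so no genome positions are printed. Probes named by other accessions were not matched, so further probes of these genes may exist. Each gene's values are those of its brightest probe, by the mean over arrays. Named were both receptors, the pathway genes with a tested probe, and the 5 named genes with the highest correlation to each receptor. The members, gene lists and alternatives were chosen with earlier results of these data known.

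Equal replicate numbers mark the same mare per the labels. Deviations from the day means correlated with a median of 0.245 in the same mare (50 pairs), 0.120 in the same mare on different slides (26 pairs) and −0.05 in different mares on different days (200 pairs). Mares mostly lay on their own slide. Alternatives were the scaling, the background correction, the filter, blocks of mare and slide, the signal level, and leaving out each array and mare.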

Additional observations from a re-analysis of the deposited data

Results flagged for a closer look

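A mare was taken to stand apart where its gap to the nearest mare exceeded 0.71 of the day's whole range (a stricter share where 4 mares were measured), Dixon's criterion. The 5 values past it came from 1 array, that of mare 4 at day 12. On it PTGFR was the lowest of the 5 mares at −5.82, with a gap to the next mare of 0.815 of the whole range. The PTGER2 probes A_69_P000891, A_69_P000892, A_69_P000893 and A_69_P000894 were the highest at 2.56, 2.79, 2.49 and 2.62, with gaps of 0.810, 0.830, 0.810 and 0.878 of the range. These 4 probes measure 1 transcript and are not separate observations. The day 16 level of mare 4 for the brightest PTGER2 probe, 3.11, had a larger gap of 1.85 but in a wider range (0.603 of it), and was not past the criterion. In all 35 groups were examined, 34 of 5 mares and 1 of 4, and chance alone sets about 5% of groups apart in this way.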

How the results depend on the processing

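Of the called results, the PTGER2 rise from day 3 to day 8 lost its call with no filter on dim probes (1.19), with mare and slide as blocks (1.21) and without the 2 arrays that stood apart (1.08), and ran from 1.02 to 1.40 when arrays or mares were left out. The PTGER2 fall from day 8 to day 16 lost it with mare and slide as blocks (−1.45) and with only the 10 arrays of those days (−1.40), and ran from −1.90 to −1.14. With arrays or mares left out the PTGFR F test had an adjusted p of 0.000791 to 0.0574, and the PTGFR fall from day 8 to day 16 ran from −2.01 to −1.31. Under normexp with an offset of 50 that fall was −1.12 (adjusted p = 0.00811), the smallest of 14 alternatives. The differences between the receptors' changes were 2.03 for day 12 against day 0 and 1.97 against day 3. Sign flips paired by mare gave no call, but with 5 mares their exact p cannot go below 0.0625, so they could not give one. With arrays or mares left out these differences ran from 1.54 to 2.36 and from 1.48 to 2.39.

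Only uncalled results reversed. With mare and slide as blocks, PTGFR was −0.058 for day 3 against day 0 and −0.34 for day 8 against day 0. PTGFR at day 12 against day 0 was 0.44 with the signal level as a covariate, and −0.42 to 0.27 with arrays or mares left out. PTGER2 at day 16 against day 3 ran from −0.82 to 0.17. The receptors' difference from day 0 to day 3 was −0.0088 under quantile normalization and −0.26 to 0.60 with arrays or mares left out. From day 8 to day 16 it was −0.27 under normexp with an offset of 50, but 0.16 with an offset of 0. With arrays or mares left out it ran from −0.59 to 0.87 there, and from −1.05 to 0.41 from day 12 to day 16. The mare block alone changed 1 receptor call, PTGER2 from day 12 to day 16 (adjusted p = 0.0369), which passed in 7 of 14 alternatives. From day 8 to day 12 the probes called numbered 392, against 606 under quantile normalization and 855 with the mare block. The cause of these differences was not tested. Normexp with an offset of 50 moved the median of all probes by up to −0.25 (day 12 against day 0). PTGFR was measured at a low signal over background.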
